A study of Mus musculus with 12 samples.

Results

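The genes described here are 7 that encode or process the surface of the mouse egg at fertilization: the zona pellucida genes Zp1, Zp2 and Zp3, the tetraspanin genes Cd9 and Cd81, Izumo1r, which encodes the sperm receptor JUNO, and Astl, which encodes ovastacin. They were chosen by symbol, and all 7 had a row among the 22801 genes measured at metaphase II (MII, the mature egg), while 0 of 7 had a row among the 3475 genes listed at the germinal vesicle stage (GV, before maturation). RNA was sequenced from pools of 15 oocytes taken from the ovaries of C57BL/6 females on postnatal day 35. Control oocytes (WT) were Lsm14bfl/fl, and conditional knockout oocytes (CKO) were Lsm14bfl/fl-Gdf9-Cre, so both genotypes carried the floxed alleles and the CKO oocytes also carried a recombinase driven by the promoter of the oocyte gene Gdf9. Lsm14b encodes an RNA-binding protein of ribonucleoprotein granules. Each genotype was sampled at both stages with 3 biological replicates, which makes 4 groups and 12 libraries. The comparison asks how the levels of these transcripts differ in oocytes that lack Lsm14b.

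The zona pellucida is the extracellular coat that the growing oocyte secretes. In the mouse it is built from the glycoproteins ZP1, ZP2 and ZP3, and sperm bind to it through ZP2. A sperm that has crossed the coat docks on JUNO, a membrane protein held by a glycosylphosphatidylinositol (GPI) anchor, and fusion of the membranes needs CD9, with a lesser part played by its relative CD81. After fusion the cortical granules release ovastacin, a protease that cleaves ZP2 and so blocks further sperm. The zona genes are transcribed in growing oocytes, where the factor FIGLA acts on their promoters through an E-box, a short motif with the letters CANNTG.

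The 250 bases before the start site are shown for Zp3 and Cd9, whose differences the results below turn on, and for Cd81, the tetraspanin relative of Cd9 with the lowest level of the 7. All read 5′ to 3′ on the strand of the gene from GRCm38.p6, at chr5:135979855-135980104 (plus strand) for Zp3, chr6:125494761-125495010 (minus strand) for Cd9 and chr7:143052500-143052749 (plus strand) for Cd81. Capitals mark every match to CANNTG, which reads the same pattern on both strands.
Zp3: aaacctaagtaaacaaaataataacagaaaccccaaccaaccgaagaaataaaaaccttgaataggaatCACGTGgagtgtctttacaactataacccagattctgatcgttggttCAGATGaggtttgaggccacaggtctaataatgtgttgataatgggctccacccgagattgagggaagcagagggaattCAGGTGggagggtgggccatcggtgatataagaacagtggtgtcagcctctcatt
Cd9: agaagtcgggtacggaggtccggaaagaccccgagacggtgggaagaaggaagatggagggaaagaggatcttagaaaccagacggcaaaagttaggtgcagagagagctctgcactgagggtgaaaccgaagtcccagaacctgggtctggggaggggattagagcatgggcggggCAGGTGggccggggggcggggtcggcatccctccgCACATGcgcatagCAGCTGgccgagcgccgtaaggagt
Cd81: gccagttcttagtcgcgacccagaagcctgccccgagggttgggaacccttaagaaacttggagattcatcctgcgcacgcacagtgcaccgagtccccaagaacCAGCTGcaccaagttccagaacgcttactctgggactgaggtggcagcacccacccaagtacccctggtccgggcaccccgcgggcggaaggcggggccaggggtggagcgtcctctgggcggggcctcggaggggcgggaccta
The Zp3 window held 3 matches and the Cd9 window also held 3, against 1 for Cd81. Of all 32851 promoter windows of this length, 12.2% held at least 3 matches and 66.2% at least 1. The form CAGGTG, searched on both strands and itself a case of CANNTG, lay 55 to 50 bases before the Zp3 start and 73 to 68 bases before the Cd9 start, and 17.2% of all windows held it. It was also in the window of Izumo1r, as its only match. The window of the second Astl start site held 3 matches too, all of them CAGGTG, while the first Astl start site held no CANNTG. A match describes the letters only, and binding was not measured in these samples. No sequence is shown for Zp1 and Zp2.

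At MII, Lsm14b ranged from 10643 to 11641 normalized counts over the WT libraries and from 822 to 982 over the CKO libraries, so the labels fit the targeted gene in all 6 libraries. The WT libraries held 88494525 to 124872889 reads and the CKO libraries 23077585 to 40530314, so every WT library was deeper than every CKO library. WT replicate 3 stood apart: its Spearman correlations with the other libraries across genes were 0.847 to 0.877, and 24.3% of its reads came from 1 gene model, CT010467.1, which gave 6.56% to 11.8% elsewhere. Several of the 7 genes were at their lowest or highest WT value in that library, so results are given with and without it. Oocyte markers summed to 656046 to 1089250 normalized counts in WT and 567680 to 683282 in CKO, with 0 of 12 called by limma and 0 by limma-voom. At an unadjusted p under 0.05 limma had 1 higher and 2 lower, against 6.7% and 9.28% of all tested genes. The authors' deposited table called 0 of the 12 higher and 2 lower, against 4.6% and 6.94%. Every CKO library lay below every WT library in 2 of 12 and above in 1 (12% and 10.4% of all tested genes). The 2 were Bmp15 (113206 to 159949 in WT, 47016 to 78335 in CKO) and H1f8.

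**Figure D1:**
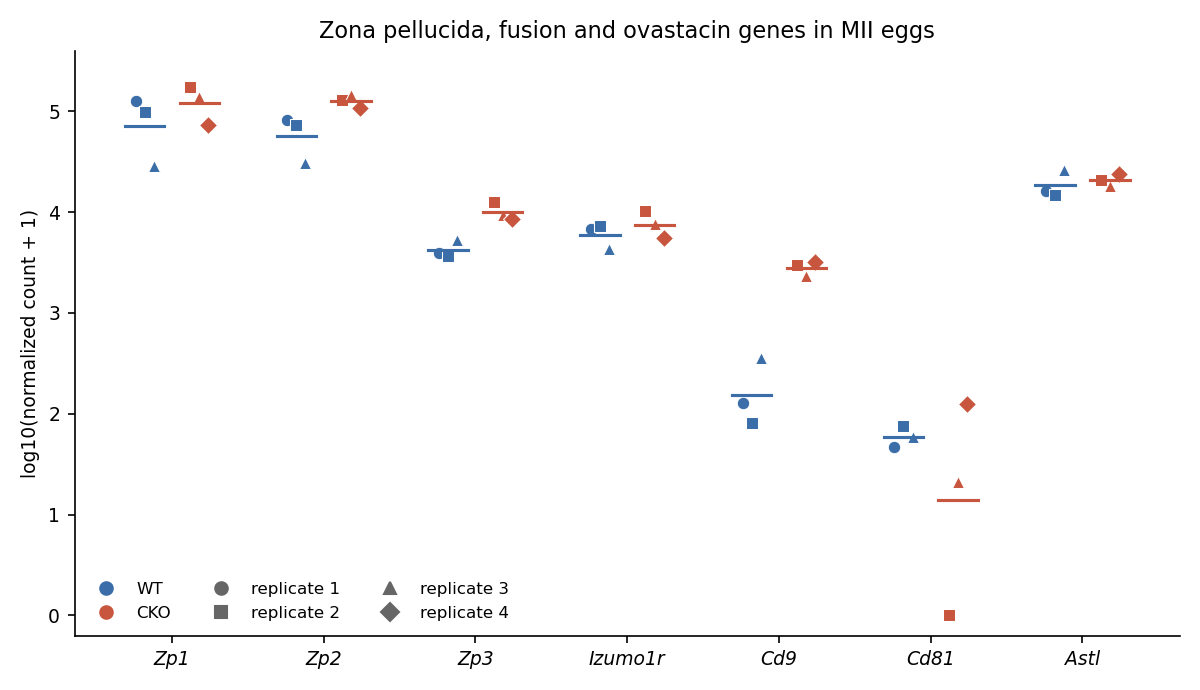
Level of each of the 7 genes in each MII library, as log10(normalized count + 1), with WT in blue, CKO in red, replicates by symbol and bars at the mean of the log values. Cd9, Zp2 and Zp3 have every CKO point above every WT point, while the CKO points of Cd81 run from 0 to 124 normalized counts.

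Across the 7 genes, only Cd9 rose in CKO eggs at the threshold used, an adjusted p under 0.05 in limma (a linear model fitted to all 20388 tested genes on log2 of the normalized count plus 1). That is 1 of 7 genes, where 1.51% of all tested genes were called, 0.52% higher and 0.991% lower. At an unadjusted p under 0.05, limma had 3 of 7 higher and 0 lower, where 16% of all tested genes passed, 6.7% higher and 9.28% lower. In 3 of 7 genes, Zp2, Zp3 and Cd9, every CKO library lay above every WT library, a pattern seen in 10.4% of all tested genes. The opposite pattern occurred in 0 of 7, against 12% of all genes. The median log2 difference was 0.74 over the 7 and -0.11 over all tested genes. Without WT replicate 3, limma called 2 of 7 (Cd9 and Zp3), with 4.88% of all tested genes called, 2.16% higher and 2.72% lower, and the median of the 7 was 0.42. That same pair was called in the authors' deposited table, where 4.6% of tested genes were higher and 6.94% lower at an adjusted p under 0.05.

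Cd9 encodes the tetraspanin that the egg membrane needs for fusion. Its normalized counts were 126, 79.6 and 353 in WT replicates 1, 2 and 3, and 3014, 2301 and 3178 in CKO replicates 2, 3 and 4. The lowest CKO library was thus well above the highest WT library, which was WT replicate 3. The means were 186 ± 147 and 2831 ± 466 (SD, n = 3 each), a ratio of 15.2. The limma log2 difference was 4.19 (SE 0.55, 95% interval 2.97 to 5.41, adjusted p = 0.0121), and Cd9 stood at position 33 among all tested genes ordered by p. By recovered reads, Cd9 had 133 to 689 reads in the WT libraries and 909 to 2307 in the shallower CKO libraries, so its difference did not rest on low counts in CKO. In level per kilobase, Cd9 moved from positions 5468 to 8363 in WT to positions 1053 to 1545 in CKO, among 15047 genes with a coding length. Without WT replicate 3 the difference was 4.80 (limma adjusted p = 0.00453). The limma call was lost without any other single library (adjusted p 0.0582 to 0.103), with log2 differences of 3.73 to 4.33. In the authors' deposited table Cd9 was at 3.93 with an adjusted p of 3.36e-09.

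The pseudogene Cd9-ps had 2 reads in CKO replicate 4 and 0 in the other 5 libraries. Gm26728, on the opposite strand and sharing 218 of the 2044 exon bases of Cd9, had 2 reads in WT replicate 3 and 0 elsewhere. Gm28809, also on the opposite strand, shares 0 exon bases with Cd9 and had no row under that symbol at MII. Because the strand setting of the counting is not given, reads from such an antisense gene within those bases could not be told apart from Cd9.

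Cd9 is also expressed by the granulosa cells that surround the oocyte, so their markers are given beside it. Of 25 cumulus and granulosa markers, 16 had a row at MII, and these summed to 2934 to 5212 normalized counts in WT and 3448 to 4449 in CKO. Most of that sum came from Nr5a2 and Cyp19a1. Limma and limma-voom called 0 of the 14 tested granulosa markers. At an unadjusted p under 0.05 limma had 3 higher and 0 lower, against 6.7% and 9.28% of all tested genes. The median log2 difference of these markers was 0.91, against -0.11 over all tested genes, and 10 of 14 were positive. Every CKO library lay above every WT library in 4 of 14, against 10.4% of all tested genes, and below in 0, against 12%. That lean was in the direction of the Cd9 difference. Of the 16 markers, 8 had a mean under 10 normalized counts. The 4 that separated, with values below, were not among these 8. The follicle-stimulating hormone receptor gene Fshr was at 34.2, 4.79 and 0 in WT replicates 1, 2 and 3 and at 157, 96.2 and 90.9 in CKO replicates 2, 3 and 4. The cyclooxygenase gene Ptgs2 was at 7.66, 0 and 0 in WT and 167, 20.3 and 31.7 in CKO, and the inhibin subunit gene Inhba at 5.89, 0 and 0 in WT and 26.2, 10.1 and 37.2 in CKO. In these 3 genes, all at low levels, the genotypes did not overlap, as in Cd9. Nr5a2 also separated, at 1572, 1697 and 1834 in WT and 2298, 2474 and 2865 in CKO. Cyp19a1 overlapped, at 734, 918 and 3071 in WT and 774, 354 and 997 in CKO. Star overlapped too, at 331, 123 and 0 in WT and 23.4, 235 and 9.64 in CKO. Amh, the hormone gene of granulosa cells, and Has2, a hyaluronan synthase gene, were at 0 in all 3 CKO libraries. In WT replicates 1, 2 and 3, Amh was at 0, 28.7 and 0 and Has2 at 0, 23.3 and 32.3.

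Markers of theca, stroma and endothelium summed to 4386 to 5204 in WT and 4654 to 5430 in CKO, and sperm markers to 59.8 to 137 and 10.1 to 120. Limma and limma-voom called 0 in either list. At an unadjusted p under 0.05 limma had 0 higher and 2 lower of 6 in the former list and 0 in the sperm list. Of all tested genes, 6.7% were higher and 9.28% lower at that level. The first sum was almost all endothelial genes, with Pecam1 alone at 2841 to 4198. Every CKO library lay below every WT library in 2 of those 6 and above in 1 (12% and 10.4% of all tested genes). The lower ones were Tie1, at 703, 446 and 695 in WT and 297, 160 and 158 in CKO, and Kdr. Kdr was at 114, 178 and 124 in WT and 64.7, 0 and 0 in CKO. In that list the authors' deposited table called 1 lower at MII and 4 lower at GV, and 0 higher at either stage. Of all genes tested there, 6.94% were lower at MII and 7.89% at GV, and 4.6% and 4.96% were higher. The GV calls also required a change over 2-fold. In the blood and immune list, 5 of 12 markers had a row. Limma called 1 of 4 tested lower, where 0.991% of all tested genes were called lower. The one called was the complement gene C1qb, at 1904, 1493 and 1049 in WT and 113, 195 and 134 in CKO. C1qb made up most of that list's sum in WT, and the macrophage gene Cd68 overlapped between genotypes. In such pools, fewer cells of a type and less RNA per cell cannot be told apart, and the part of other cells in the Cd9 difference was not tested.

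Cd81 encodes a tetraspanin closely related to CD9. It was low in every library, at 45.4, 74.2 and 57.4 normalized counts in WT replicates 1, 2 and 3 and at 0, 20.3 and 124 in CKO replicates 2, 3 and 4. The CKO libraries lay on both sides of the WT range. The 0 in CKO replicate 2 allows up to 3 reads, or 4.13 normalized counts, in that library (counting error only), and the other CKO values rest on 8 and 90 reads. The limma log2 difference was -2.09 with a 95% interval from -5.82 to 1.64 (adjusted p = 0.595), and -0.19 without CKO replicate 2. WT averaged 59.0 ± 14.5 and CKO 48.1 ± 66.5 (SD, n = 3 each), so the spread within CKO exceeded the difference. R74862, which lies on the opposite strand, shares 104 of 2879 Cd81 exon bases and had no row under that symbol at MII.

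Zp3 encodes a structural filament protein of the zona. Its normalized counts were 3921, 3661 and 5262 in WT replicates 1, 2 and 3 and 12675, 9343 and 8634 in CKO replicates 2, 3 and 4. All CKO libraries were above all WT libraries, and the spread within each genotype was narrow (highest over lowest 1.44 in WT and 1.47 in CKO). The means were 4281 ± 859 and 10217 ± 2158 (SD, n = 3 each), a ratio of 2.39. Over all 6 libraries the limma log2 difference was 1.25 (SE 0.29, 95% interval 0.60 to 1.90), with an adjusted p of 0.0682 that did not pass. It passed in limma without WT replicate 3 (1.41, adjusted p = 0.0221) and with array weights, which give libraries that fit less well less weight (1.45, adjusted p = 0.00132). The fit with array weights called 6.36% of all tested genes higher and 9.28% lower. Zp3 did not pass in limma without any other single library (adjusted p 0.155 to 0.257), nor in limma-voom (adjusted p = 0.0940). The authors' deposited table gave 1.25 with an adjusted p of 0.00132.

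Zp2 encodes the zona protein that binds sperm and is cleaved after fertilization. It was at 82058, 73628 and 30386 normalized counts in WT replicates 1, 2 and 3 and at 129172, 144760 and 108356 in CKO replicates 2, 3 and 4. The genotypes did not overlap, but WT replicate 3 lay far below the other WT libraries. With means of 62024 ± 27722 and 127429 ± 18265 (SD, n = 3 each), the ratio was 2.05. Limma gave 1.15 (SE 0.41, 95% interval 0.23 to 2.07, adjusted p = 0.205). Its difference was 0.70 when WT replicate 3 was left out (adjusted p = 0.147). Only the fit with array weights called it (0.81, adjusted p = 0.0379), a fit that called 6.36% of all tested genes higher and 9.28% lower.

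Zp1 encodes the protein that crosslinks the zona filaments. Its normalized counts were 127443, 99206 and 28963 in WT replicates 1, 2 and 3 and 172533, 137058 and 72517 in CKO replicates 2, 3 and 4. The genotypes overlapped, since CKO replicate 4 fell below 2 of the WT libraries. The means were 85204 ± 50711 and 127369 ± 50707 (SD, n = 3 each). The limma log2 difference was 0.74 with a 95% interval from -0.52 to 2.0 (adjusted p = 0.568). It dropped to 0.09 once WT replicate 3 was left out, so that library decided the size of the Zp1 difference.

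The zona transcripts together took 0.389%, 0.333% and 0.101% of all reads in WT replicates 1, 2 and 3, and 0.563%, 0.498% and 0.354% in CKO replicates 2, 3 and 4. CKO replicate 4 lay between the WT libraries, and an exact two-sided permutation test gave p = 0.2, where 3 against 3 cannot go below 0.1. Within the zona reads, Zp3 made up 1.84%, 2.07% and 8.14% in WT and 4.03%, 3.21% and 4.56% in CKO. Its share in WT replicate 3 was above that of every other library, and without that library every CKO share was above both WT shares. Zp1 gave 38.3% to 59.7% of zona reads and Zp2 38.4% to 57.2%. How the reads of these genes were counted could not be checked.

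Izumo1r encodes JUNO, the egg receptor for sperm IZUMO1. It was at 6850, 7302 and 4304 normalized counts in WT replicates 1, 2 and 3 and at 10181, 7598 and 5516 in CKO replicates 2, 3 and 4. The ranges overlapped. The limma log2 difference was 0.33 with a 95% interval from -0.42 to 1.08 (adjusted p = 0.631), an interval that still includes a difference of over 2-fold upward. Without WT replicate 3 the difference was 0.09.

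Astl encodes the cortical granule protease ovastacin. Its values were 16306, 14908 and 26365 normalized counts in WT replicates 1, 2 and 3 and 20966, 18344 and 23649 in CKO replicates 2, 3 and 4. WT replicate 3 was the highest of all 6 and the other WT libraries the lowest. The limma log2 difference was 0.17 (95% interval -0.51 to 0.85, adjusted p = 0.781). It was 0.42 when WT replicate 3 was left out (adjusted p = 0.293).

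**Figure D2:**
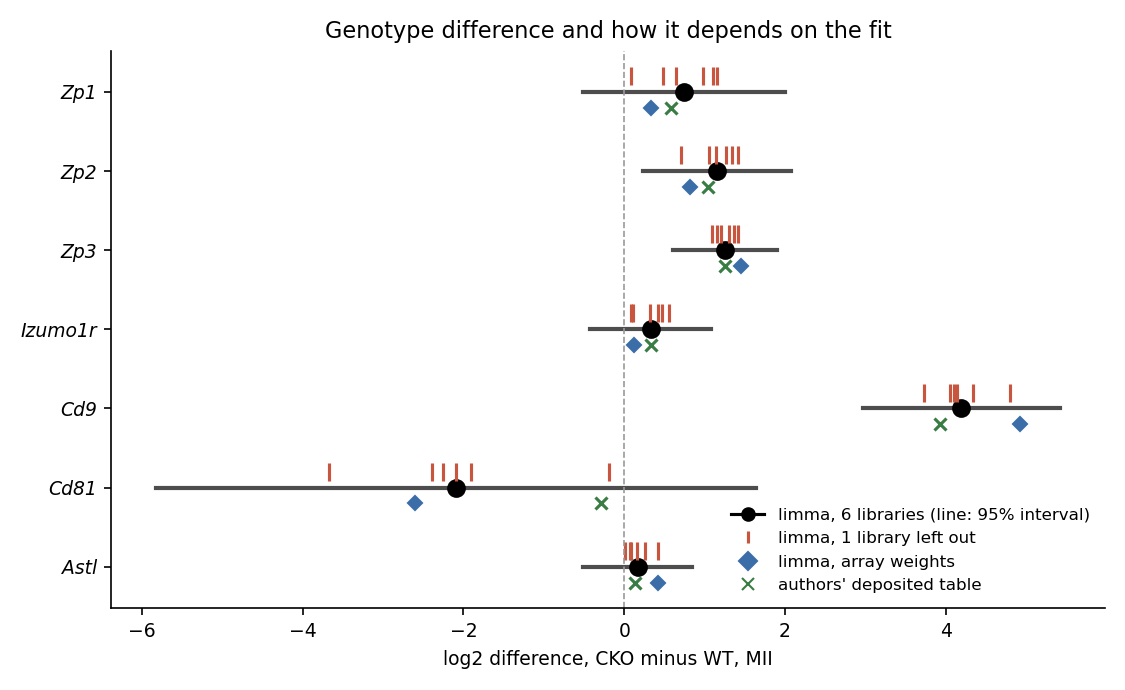
Log2 difference between CKO and WT at MII for each gene. Black points are limma over 6 libraries with 95% intervals, red ticks the fits with 1 library left out, blue diamonds array weights and green crosses the authors' deposited table. Cd9 stays between 3.73 and 4.92 in all of these, Zp3 between 1.09 and 1.45, and the Cd81 interval runs from -5.82 to 1.64.

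Levels were compared between genes only per kilobase of the longest coding transcript in GENCODE M21, matched by symbol. How the reads of each gene were counted could not be checked, so the place of Zp3 below Zp1 and Zp2 carries that limit. In WT eggs the order of mean normalized counts per kilobase was Zp1 (43405 ± 25834), Zp2 (27776 ± 12415), Astl (8074 ± 2629), Izumo1r (4765 ± 1252), Zp3 (3236 ± 650), Cd9 (152 ± 119) and Cd81 (38.5 ± 9.44; SD, n = 3 each). The libraries of Zp1 and Zp2 overlapped, as did those of Izumo1r and Zp3, and the other neighbours in this order did not overlap. In CKO eggs Zp1 and Zp2 again came first and overlapped, at 64885 ± 25831 and 57066 ± 8179. Next came Astl at 8829 ± 1116, Zp3 at 7723 ± 1631 and Izumo1r at 6015 ± 1810, whose neighbouring ranges overlapped, and then Cd9 at 2305 ± 379 and Cd81 at 31.4 ± 43.4 (SD, n = 3 each), which did not. Ranked per kilobase among 15047 genes, Zp1 was at positions 10, 13 and 109 in WT replicates 1, 2 and 3 and at 9, 9 and 31 in CKO, and Zp3 at 1005, 1021 and 676 in WT and 251, 356 and 361 in CKO.

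Ratios of a pair of these genes within a library do not depend on the scaling between libraries. For 5 pairs the CKO and WT libraries were compared by an exact two-sided permutation test, which cannot go below p = 0.1 with 3 against 3. Astl over Zp3 was 4.16, 4.07 and 5.01 in WT replicates 1, 2 and 3 and 1.65, 1.96 and 2.74 in CKO replicates 2, 3 and 4, so every CKO library was lower (log2 difference -1.08, exact p = 0.1, 0.25 adjusted over 5 pairs). The libraries separated, but this design cannot reach a p under 0.05. Cd9 over Cd81 was 2.73, 1.07 and 6.06 in WT and 3015, 108 and 25.4 in CKO, with the same p values. The first of these CKO ratios has a denominator of 0 reads, raised by the added count of 1, and has no upper bound.

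For Zp1 over Zp3 the ratio was 32.5, 27.1 and 5.50 in WT and 13.6, 14.7 and 8.40 in CKO (log2 difference -0.51, exact p = 0.6). Zp2 over Zp3 was 20.9, 20.1 and 5.77 in WT and 10.2, 15.5 and 12.5 in CKO (log2 difference -0.10, exact p = 1). In both pairs WT replicate 3 was below all CKO libraries and the other WT libraries above them. Without WT replicate 3 the log2 differences were -1.32 and -0.71. Izumo1r over Cd81 overlapped between genotypes (exact p = 0.4).

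**Figure D3:**
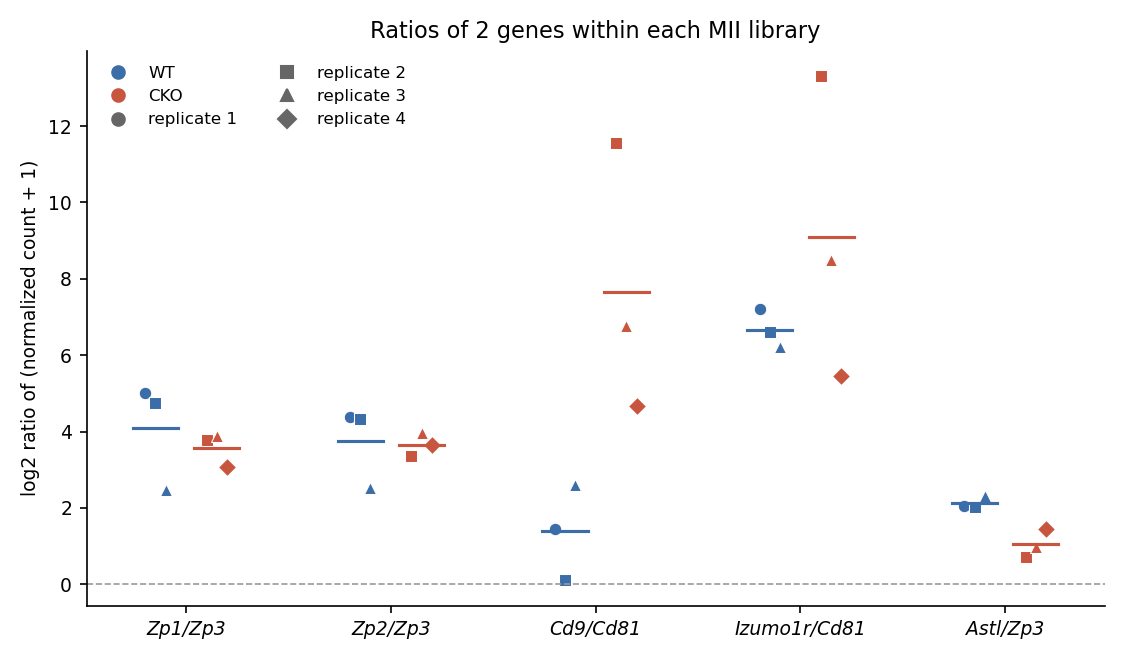
Log2 ratio of normalized counts (plus 1) of 2 genes in the same MII library for 5 pairs, with WT in blue, CKO in red, replicates by symbol and bars at the group mean. Astl/Zp3 is lower in every CKO library, Cd9/Cd81 is higher in every CKO library, and WT replicate 3 (blue triangle) lies below the CKO points for Zp1/Zp3 and Zp2/Zp3.

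The genes whose profile over the 6 MII libraries came closest to each of the 7 were ranked by the root mean square difference of centred log2 levels, among named genes within 8-fold in mean level. For Cd9 the closest 3 of 7530 were Pabpc1 (0.52), the cytoplasmic poly(A)-binding protein gene, Chchd2 (0.55), a mitochondrial protein gene, and Tmsb10 (0.57), an actin-sequestering peptide gene, where the median candidate differed by 2.28. Tmsb10, for example, was at 13, 29.9 and 74.9 normalized counts in WT and 551, 299 and 569 in CKO. Like Cd9, it had its highest WT value in replicate 3, as did Chchd2 (37.1, 80.8 and 239 in WT). Pabpc1, the closest gene, instead had its highest WT value in replicate 1 (561, 196 and 484). For Zp3 the closest were the beta-actin gene Actb (0.13), the talin gene Tln2 (0.17) and the ubiquitin ligase gene Rfwd3 (0.17), against a median of 0.81 over 5374 candidates. Zp1 was closest to Strada (0.085), Dcakd and Grina, and Zp2 to Akap13 (0.091), Birc6 and Dcaf1. Izumo1r was closest to the aldehyde reductase gene Akr1a1 (0.021) and Astl to Dcaf8 (0.033). Among the 7 themselves the closest pair was Zp1 and Zp2 (0.41), and Zp3 was closer to Astl (0.59) than to Zp1 (0.89) or Zp2 (0.64). These distances describe 6 libraries, including WT replicate 3, and carry no test.

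Related genes were counted in 6 lists, several of which include some of the 7. Among 11 zona matrix and oocyte-secreted proteins, 9 were tested, and limma and limma-voom called 0. Of the 9, limma had 3 higher and 2 lower at an unadjusted p under 0.05, against 6.7% and 9.28% of all tested genes. The median log2 difference of the 9 was -0.27, against -0.11 over all tested genes. Without WT replicate 3 limma called 2 higher and 1 lower there, against 2.16% and 2.72% of all tested genes in that fit. In the same list, 1 higher and 2 lower were counted from the authors' deposited table, against 4.6% and 6.94% of its tested genes. Those called by limma without WT replicate 3 were Zp3 and Oosp2 (higher) and Oosp3 (lower). Oosp3, an oocyte-secreted protein gene, was at 9657 ± 6441 in WT eggs against 2503 ± 706 in CKO eggs (SD, n = 3 per genotype) with every CKO library lower (limma log2 difference -1.80, adjusted p = 0.0822, and 0.0488 when WT replicate 3 was left out).

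Of all tested genes, limma called 0.52% higher and 0.991% lower. Of 10 tested transcription regulators of zona genes, 1 rose, 0 fell and 9 were not called, with a median of 0.10. The gene that rose was Nobox, an oocyte homeobox factor, at 35534 ± 14615 normalized counts in WT eggs against 135349 ± 12001 in CKO eggs (SD, n = 3 per genotype; limma log2 difference 2.02, adjusted p = 0.0336). Among 20 tested tetraspanins, immunoglobulin-family partners and integrins, Cd9 rose, 0 fell and 19 were not called, with a median of 0.03. Tspan14 had the smallest p among the others. It was at 9006 ± 481 in WT eggs against 16643 ± 2008 in CKO eggs (SD, n = 3 per genotype; limma log2 difference 0.88, adjusted p = 0.123, and 0.0460 when WT replicate 3 was left out).

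In the list of GPI anchor synthesis and folate receptors limma called 0 of 26 genes, and limma-voom also called 0. At an unadjusted p under 0.05 limma had 2 higher and 4 lower, against 6.7% and 9.28% of all tested genes. The median of the list was -0.20. Pigm, a mannosyltransferase of that pathway, was at 1257 ± 500 in WT eggs against 373 ± 124 in CKO eggs (SD, n = 3 per genotype), with every CKO library lower (limma log2 difference -1.74, adjusted p = 0.0933). In the list of cortical granules and exocytosis limma called 0 of 18, and limma-voom also called 0. At an unadjusted p under 0.05 limma had 3 higher and 1 lower, against the same shares of all tested genes. The median of the list was 0.41. Snap23, a membrane fusion protein of exocytosis, was at 811 ± 192 in WT eggs against 1705 ± 568 in CKO eggs (SD, n = 3 per genotype; limma log2 difference 1.05, adjusted p = 0.215). Of 18 genes of zona glycosylation and processing, 0 rose, 1 fell and 17 were not called, where 0.991% of all tested genes fell. The median of the list was -0.02. The gene that fell was C1galt1c1, the chaperone of the enzyme that builds core O-glycans, at 390 ± 181 in WT eggs against 30.9 ± 8.73 in CKO eggs (SD, n = 3 per genotype; limma log2 difference -3.55, adjusted p = 0.0466). Both adjusted p-values are near the threshold: 8 of 14 alternatives lost the call of Nobox and 9 of 14 that of C1galt1c1. Over those alternatives the log2 difference stayed between 1.64 and 2.36 for Nobox and between -3.76 and -3.20 for C1galt1c1. Both were called at MII in the authors' deposited table (adjusted p = 6.29e-05 and 4.52e-08).

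**Figure D4:**
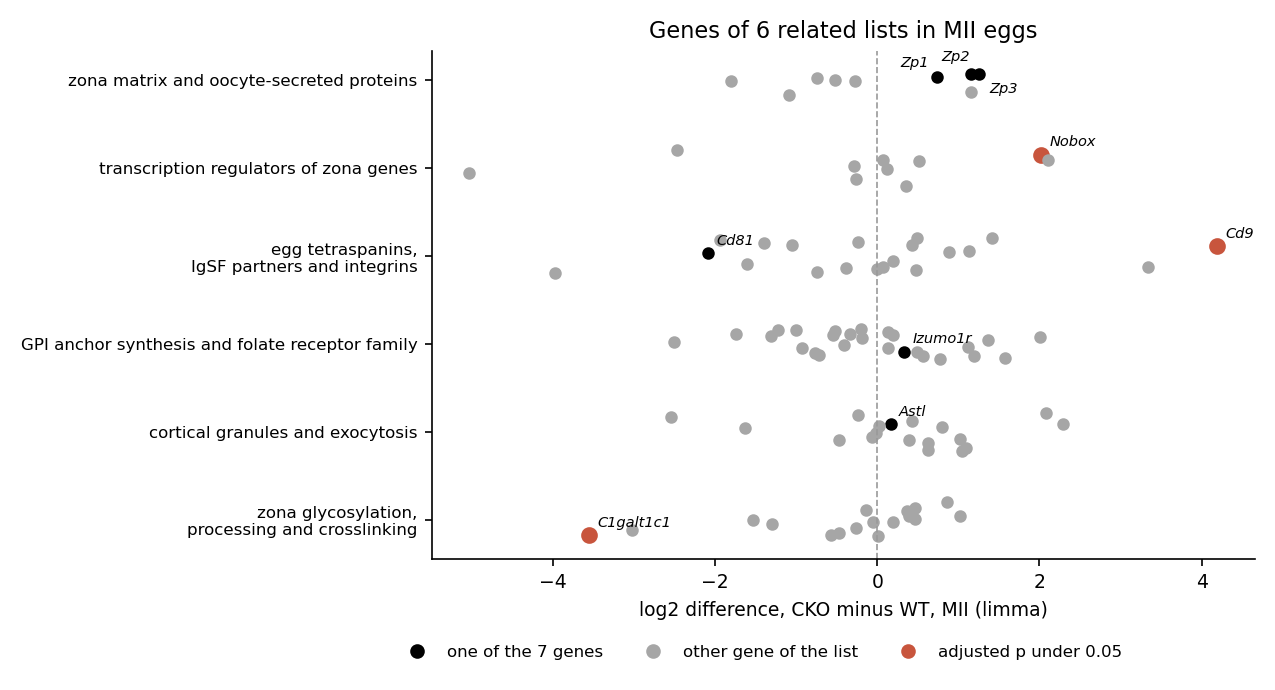
Log2 difference between CKO and WT at MII (limma) for the tested genes of 6 lists, with the 7 genes in black, others in grey and genes with an adjusted p under 0.05 in red. Cd9, Nobox and C1galt1c1 are the only red points.

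At GV, none of the 7 genes was among the 3475 rows, which all had an unadjusted p under 0.05 and a change of over 2-fold in the authors' deposited table. The adjusted p-values there imply 21462 tested genes, so 16.2% were listed. Absence means that a gene did not meet both conditions, and no GV level of these 7 genes was analysed here. For Cd9 and Zp3 the stages were therefore not compared. Values at the 2 stages were also normalized separately.

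Genes of the 6 lists did have rows at GV. By the authors' deposited table, 4.96% of tested genes were higher and 7.89% lower there, with an adjusted p under 0.05 and a change over 2-fold. Among regulators of zona genes it called 2 of 11 higher and 1 lower. Nobox had 78179 ± 1379 normalized counts in WT oocytes against 233858 ± 34434 in CKO oocytes, Tcf4, an E-protein gene, had 141 ± 91.2 and 482 ± 28.7, and Sohlh2, a germ-cell factor gene, had 684 ± 178 and 305 ± 145 (SD, n = 3 each). All 3 of these separated the genotypes' libraries in the same direction at MII, where Tcf4 and Sohlh2 did not pass in limma (adjusted p = 0.205 and 0.223).

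Of 21 tetraspanin, partner and integrin genes, 2 were called higher and 2 lower at GV. Ptgfrn, whose protein binds CD9, was at 1243 ± 463 in WT and 2910 ± 353 in CKO, and Igsf8, whose protein also binds CD9 and CD81, at 675 ± 105 and 270 ± 49.4 (SD, n = 3 each). The authors' deposited log2 fold changes were 1.23 for Ptgfrn and -1.32 for Igsf8, so these known CD9 partners differed in opposite directions. Tspan3 was at 7055 ± 1344 and 16965 ± 3385 and the integrin gene Itgb5 at 598 ± 125 and 288 ± 113 (SD, n = 3 each). At MII none of these 4 passed in limma, and the libraries of Ptgfrn and Tspan3 overlapped there.

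In the other lists the lower calls at GV can be read against the 7.89% of all tested genes called lower there. The authors' deposited table called 3 of 30 GPI anchor genes lower (Pigm, Pigw and Pigg) and 0 higher. For 21 cortical granule and exocytosis genes it called 1 higher and 2 lower: Vamp1, at 1135 ± 274 in WT and 452 ± 72.9 in CKO, Cplx1, at 432 ± 115 and 178 ± 37.1, and Snap25, at 3.78 ± 6.54 and 161 ± 79.7 (SD, n = 3 each). C1galt1c1 had 2390 ± 609 normalized counts in WT oocytes against 296 ± 70.2 in CKO oocytes (SD, n = 3 per genotype; authors' deposited log2 fold change -3.01, adjusted p = 1.65e-23), and it was lower in every CKO library at both stages. Zp3r, a sperm acrosomal gene despite its name, was at 377 ± 96.6 and 186 ± 44, and Plg, the plasminogen gene, was at 22.3 ± 15.3 in WT and listed at 0 in all 3 CKO libraries (SD, n = 3 each).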

How the data were processed

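Both tables were used as deposited. Each library's value was deposited by the authors as log10(normalized count + 1), which was tested: once the values were taken back to counts, their average matched the authors' deposited mean signal to a relative difference of 1.4e-14. Per the file headers, the tables also hold log2 fold changes, a test score, p-values and adjusted p-values. Aligner, build, annotation and strandedness of the counting: not given in the sources used here. All values were whole multiples of 1 read per library (within 0.05), which gave the read counts; total RNA per egg was not measured.

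At MII, log2(normalized count + 1) of 6 libraries was analysed with limma 3.58.1 in R 4.3.3, using a trended prior variance, leaving out genes with a mean under 1, with Benjamini-Hochberg adjustment over 20388 genes. With a library left out, that filter was applied again. The procedure was tested on simulated counts with the same dispersion for all genes and no library that stood apart. It therefore does not show how limma behaves with a library such as WT replicate 3. Ratios used an exact permutation test. Alternatives were a pseudocount of 0.1, no filter, library size alone (also, added after the data were seen, without CT010467.1 and Gm42418), limma-voom on recovered reads, array weights, a replicate block, each library left out and the authors' deposited table. List counts without WT replicate 3 were also added after the data were seen. At GV, where genes had been selected, no model was fitted. Genes named besides the 7 were those called by limma in each list (up to 4, otherwise the smallest p) and up to 4 called at GV. The genes and lists were chosen with earlier results of these data known. A pool mixes 15 oocytes, so a change in every egg and in part of them cannot be told apart, and p-values measure the spread between pools.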

Additional observations from a re-analysis of the deposited data

How the results depend on the processing

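Limma called 106 genes higher and 202 lower at MII. It called 1297 and 1893 with array weights, and limma-voom called 91 higher and 80 lower, while the authors' deposited table had 738 higher and 1113 lower. Leaving out each library gave 0 to 437 higher and 0 to 551 lower, the upper ends without WT replicate 3; for the other 5, the genes with an unadjusted p under 0.05 numbered 915 to 1471 (higher) and 1345 to 1737 (lower). Of the 7 genes, 3 were called with array weights (Zp2 at 0.81, Zp3 at 1.45 and Cd9), 2 in the authors' deposited table (Zp3 at 1.25, and Cd9), and 0 to 2 with a library left out, where Zp3 ranged from 1.09 to 1.41 and Cd9 from 3.73 to 4.80 on the log2 scale.

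Replicate numbers 2 and 3 occur in both genotypes, with correlations of the deviations of 0.013 and -0.10. Pairs with different numbers ranged from -0.099 to 0.13. With 3 libraries per genotype these correlations cannot show whether samples with the same number were matched, and the labels give only the number. With the replicate block limma called 0 higher, 0 lower and 0 of the 7 (528 higher and 968 lower at an unadjusted p under 0.05), Cd9 was at 3.96 and Astl changed sign to -0.016. This fit has few residual degrees of freedom.

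Among the other genes named, none of those that changed sign was called at MII. Pigw was at 0.63 with the replicate block. With a library left out, Zp3r ranged from -1.34 to 0.16, Tspan3 from -0.22 to 1.0, Pigg from -0.86 to 0.20 and Cplx1 from -1.07 to 0.50. The cause was not tested. The within-library log2 ratios moved by less than the larger of the 2 genotypes' SDs in the alternatives run, but by more than the smaller SD for each pair. With a library left out, Zp2/Zp3 ranged from -0.71 to 0.22, changing sign, Zp1/Zp3 from -1.32 to -0.040, Astl/Zp3 from -1.29 to -0.92, Cd9/Cd81 from 4.33 to 7.78 and Izumo1r/Cd81 from 0.30 to 4.23. The GV alternatives were not run, since none of the 7 genes had a GV row.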
